A study of Mus musculus with 6 samples.

Results

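Txnip, Arrdc4 and Slc2a1 are 3 of the 1228 genes in a table of FPKM values (fragments counted per gene, divided by gene length and by the library's total) from Bv2 cells, an immortalised mouse microglial line of wild-type genotype. They were chosen by symbol, with their difference between the study's groups already known, so the values of that difference are given as a description without a test. The study set 3 control libraries against 3 libraries from cells put through oxygen and glucose deprivation and reperfusion (OGD/R). For OGD/R, cells had 30 min under nitrogen, then 2 h in glucose-free and serum-free medium at 1% oxygen, then 24 h back in standard medium with serum. The same protocol text mentions an infection 72 h before deprivation without saying to which samples it applies, and gives no handling for control cells, so effects of either cannot be told apart from those of OGD/R. Nothing in the labels says that the replicates were separate cultures, so their spread may be technical. The p-values below set the difference between the groups against that spread only.

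Txnip (thioredoxin-interacting protein) and Arrdc4 belong to the alpha-arrestins, adaptor proteins that bring cargo to the endocytic machinery. Cells transcribe both through the sensors MondoA (Mlxip) and ChREBP (Mlxipl), which enter the nucleus with their partner Mlx when glucose phosphates build up. Both arrestins lower glucose uptake, in part by removing from the cell surface the transporter GLUT1, the product of Slc2a1 and the main basal glucose carrier of many cell types. Slc2a1 itself is a target of hypoxia-inducible factors and of growth-factor signalling. In microglia Txnip is also known as a partner of the inflammasome sensor NLRP3.

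The promoter sequences are shown because the sensors and the hypoxia factors are known to act through short DNA motifs. In RefSeq's promoter windows (build GRCm38.p6, 250 bases before to 50 bases after each start), all 3 genes had an entry. Txnip lies on chromosome 3 from 96557957 to 96561883 on the plus strand, Arrdc4 on chromosome 7 from 68736995 to 68749241 on the minus strand, and Slc2a1 on chromosome 4 from 119108711 to 119137983 on the plus strand (GENCODE M21, GRCm38). The stretches below run 5′ to 3′ on each gene's own strand, for Txnip at chr3:96557707-96557956, for Arrdc4 at chr7:68749239-68749488 and for Slc2a1 at chr4:119108495-119108720. Capitals mark, on either strand, the E-box CACGTG in Arrdc4, the hypoxia core ACGTG in Slc2a1, the pair of CACGAG copies in Txnip, and the CCAAT box (ATTGG where it lies on the reverse strand).
Txnip: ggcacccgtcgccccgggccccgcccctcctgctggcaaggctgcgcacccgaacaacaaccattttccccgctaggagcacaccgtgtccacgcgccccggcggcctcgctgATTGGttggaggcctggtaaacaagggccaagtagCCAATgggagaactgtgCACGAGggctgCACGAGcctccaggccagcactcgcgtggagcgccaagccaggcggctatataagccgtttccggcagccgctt
Arrdc4: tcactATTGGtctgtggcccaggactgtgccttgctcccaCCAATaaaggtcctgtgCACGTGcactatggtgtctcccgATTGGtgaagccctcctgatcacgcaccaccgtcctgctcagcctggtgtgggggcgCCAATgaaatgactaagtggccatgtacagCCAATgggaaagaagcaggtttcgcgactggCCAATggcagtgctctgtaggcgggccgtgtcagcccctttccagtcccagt
Slc2a1: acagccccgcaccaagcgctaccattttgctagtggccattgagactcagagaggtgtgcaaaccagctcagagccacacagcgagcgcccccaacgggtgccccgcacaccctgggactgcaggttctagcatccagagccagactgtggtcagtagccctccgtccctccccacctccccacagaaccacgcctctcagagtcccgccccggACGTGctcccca

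The Txnip stretch held 2 copies of CACGAG spaced by 5 bases, from position -85 to -69 relative to the RefSeq start. This arrangement was searched on both strands and was written down from the Txnip sequence itself, so its match there is no finding. Across 32851 promoter windows it occurred in 1, that of Txnip. Arrdc4 held a single CACGTG, an E-box, at -193 to -188, a motif present in 7.15% of the windows. The shorter ACGTG, the core of the element that hypoxia-inducible factors bind, was at -36 to -32 in Slc2a1. These positions count from the RefSeq start, 119108745, which is 34 bases downstream of the GENCODE start given above. The GENCODE start thus lies within this copy of ACGTG. For Arrdc4 the RefSeq and GENCODE starts are 3 bases apart. ACGTG also lies within the E-box of Arrdc4, on both strands, and 19.6% of all windows held it. No copy of ACGTG was in the Txnip window. A pair of CACGTG copies with 5 bases between them and the published carbohydrate response element consensus, searched on both strands, matched none of the 3 windows; of all windows, 0 and 39 held them. CCAAT, which the factor NF-Y binds, was added after the sequences were seen. It occurred 6 times in the Arrdc4 window, 2 times in that of Txnip and 1 time in that of Slc2a1. In Slc2a1 it was at 12 to 16 bases past the RefSeq start. Of all windows, 37.4% held at least 1 copy, 11.7% at least 2 and 0.0791% at least 6. The CACGAG pair of Txnip has the spacing of the carbohydrate response element consensus and departs from it only within the copy nearer the start. A match in letters is not evidence that a factor binds there, and a missing match is not evidence that none does.

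Facts of the whole table bear on every value. It held 605 genes with the higher mean in OGD/R and 623 with the lower, and the log2 ratios of group means nearest to 0 were 1.03 and -0.97, so no gene with a smaller difference was listed and the table was selected on these same samples. Genes outside it are not analysed here. Depth was read from the spacing of low values, which fits 7626000 to 8665000 counted units in a library. Control replicate 1 stood apart within its group, with a median absolute difference of 0.27 and 0.273 on the log2(FPKM + 1) scale from the other control libraries, which differed by 0.116 from each other. OGD/R replicate 3 differed from the other OGD/R libraries by 0.22 and 0.226, and those by 0.13. Of 16 microglial marker genes listed, the table held Cx3cr1, P2ry12 and P2ry13, whose summed level was 2.03 to 2.83 FPKM in control and 3.27 to 4.01 in OGD/R. These went opposite ways: mean Cx3cr1 was 0.373 and 1.77 FPKM and mean P2ry12 0.53 and 1.25, whereas mean P2ry13 was 1.48 in control and 0.713 in OGD/R. The other 13 are not analysed here. Of markers of other cell types, it held 1 of 7 for neurons (Tubb3, 0.56 to 1.17 FPKM in control and 0.0 to 0.37 in OGD/R), 1 of 9 for the oligodendrocyte lineage (Cspg4, at most 0.09) and 1 of 7 for endothelial cells (Vwf, 3.22 to 4.4 and 1.1 to 1.74), with 0 of 7 for astrocytes and 0 of 7 for fibroblasts and mural cells. Whether a change in the makeup of the culture takes part in the values below was not tested. In bulk RNA, fewer cells that express a gene and less of its RNA per cell cannot be told apart.

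Txnip was at 21.6, 33.63 and 29.89 FPKM in control replicates 1 to 3, and at 173.81, 179.48 and 223.57 FPKM in OGD/R replicates 1 to 3. The lowest OGD/R library was 5.17 times the highest control library. Group means were 28.4 ± 6.16 and 192 ± 27.2 FPKM (SD, n = 3), a ratio of 6.78. By level the gene was in 94th to 124th place among the 1228 genes in control libraries and in 4th to 7th place in OGD/R libraries. By gain in FPKM, 164, it was number 2 of the 605 genes that were higher in OGD/R, after the mitochondrial gene mt-Nd2, while by ratio it was number 86. Counted units for Txnip were 517 to 866 in control and 4359 to 6050 in OGD/R. In control replicate 1 the 95% counting interval (exact Poisson) was 19.8 to 23.5 FPKM, below the 31.4 to 35.9 of replicate 2, so the spread among the control libraries went beyond counting error. Such intervals cover counting error alone.

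Arrdc4 was far less abundant, at 1.45, 1.26 and 1.4 FPKM in control replicates 1 to 3 and at 10.08, 9.12 and 9.14 in OGD/R. Here too the groups were well separated, the lowest OGD/R library being 6.29 times the highest control library. The means were 1.37 ± 0.0985 and 9.45 ± 0.549 FPKM (SD, n = 3), a ratio of 6.9, number 83 of 605. Behind these values stood 42 to 45 units in each control library and 312 to 327 in each OGD/R library. Within each group the 95% counting intervals of the libraries overlapped, at 0.908 to 1.94 FPKM overall in control and 8.14 to 11.2 in OGD/R, so differences among replicates were not detectable at this depth. On means with a pseudocount of 1 added, the ratio of Arrdc4 was 4.41, because the pseudocount is large beside its control level.

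Slc2a1 was lower after OGD/R. Its level was 90.75, 59.39 and 66.08 FPKM in control replicates 1 to 3 and 35.34, 34.7 and 30.28 FPKM in OGD/R. Every OGD/R library was below every control library, the closest pair differing 1.68-fold. From 72.1 ± 16.5 to 33.4 ± 2.76 FPKM (SD, n = 3), the mean was 2.16-fold lower, number 487 of 623 genes by the size of the ratio and number 47 by the loss in FPKM, 38.6. The transporter was still among the more abundant genes of the table after OGD/R, in 68th to 89th place of 1228, against 29th to 57th in control. Control replicate 1 was the highest library, and without it the mean was 1.88-fold lower. Slc2a1 had 1717 to 2440 units in a control library and 920 to 1030 in an OGD/R library. For these 3 genes, as for 94.9% of the table, the groups did not overlap, and because both the table and the genes were picked on this contrast nothing is read from that.

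**Figure D1:**
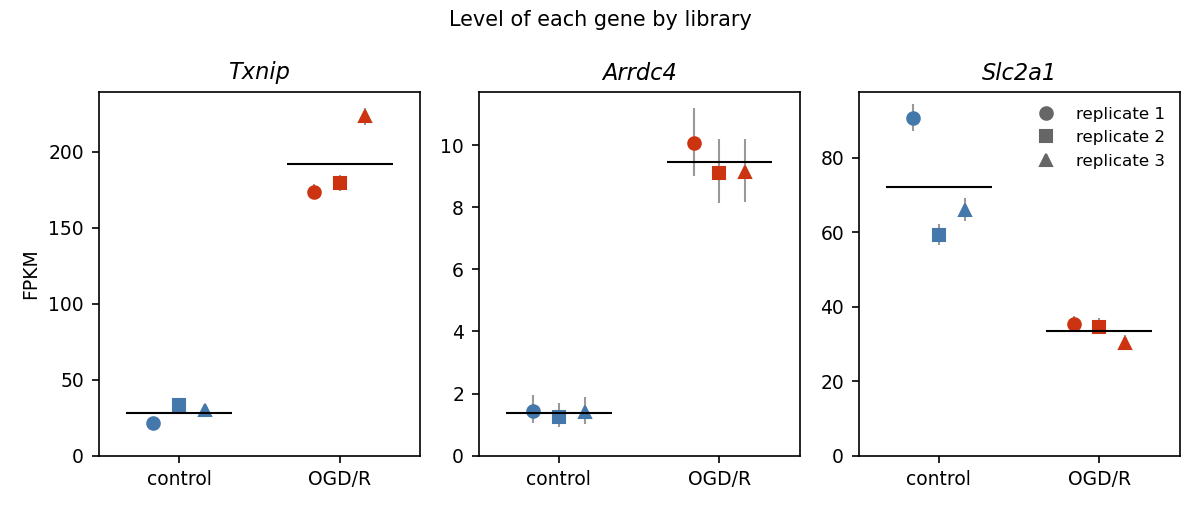
FPKM of Txnip, Arrdc4 and Slc2a1 (y axes from 0, each with its own scale) in the 3 control and 3 OGD/R libraries; symbols give the replicate, grey bars the 95% counting interval from recovered units and black lines the group mean. Txnip was at 21.6 to 33.63 FPKM in control and 173.81 to 223.57 in OGD/R, Arrdc4 at 1.26 to 1.45 and then 9.12 to 10.08, and Slc2a1 was at 59.39 to 90.75 and then 30.28 to 35.34.

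The proportion of the arrestins to each other differed by less than its spread. The ratio of Txnip to Arrdc4 in FPKM was 14.9, 26.7 and 21.4 in the control libraries and 17.2, 19.7 and 24.5 in the OGD/R libraries, with means of 21 ± 5.91 and 20.5 ± 3.67 (SD, n = 3). These ranges overlapped, although both genes differed almost 7-fold between the groups. The ratio of Txnip to Slc2a1 was 0.238, 0.566 and 0.452 in control and 4.92, 5.17 and 7.38 in OGD/R. In control cells the transporter was thus the more abundant message per length in each of the 3 libraries, and after OGD/R the arrestin was. For Arrdc4 to Slc2a1 the means were 0.0195 ± 0.00302 and 0.283 ± 0.0196.

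Within the groups, the libraries with more Txnip had less Slc2a1. On the log2 scale, Txnip in control replicates 1 to 3 deviated from its control mean by -0.37, 0.27 and 0.1, and Slc2a1 by 0.36, -0.26 and -0.1. In OGD/R the deviations were -0.14, -0.09 and 0.23 for Txnip and 0.08, 0.06 and -0.14 for Slc2a1. The 2 genes were on opposite sides of their group means in 6 of 6 libraries. So was Txnip with 8.18%, and Slc2a1 with 20.6%, of 831 other tested genes with no value at 0. Arrdc4 deviated by no more than 0.12, which is within its counting error, so its side of the mean is not compared. The largest deviations of Txnip and Slc2a1 were in control replicate 1 and, for OGD/R, in replicate 3, the libraries that also stood apart over the whole table, and the part of that in the pattern was not tested. With 6 libraries centred on 2 means this is a description.

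**Figure D2:**
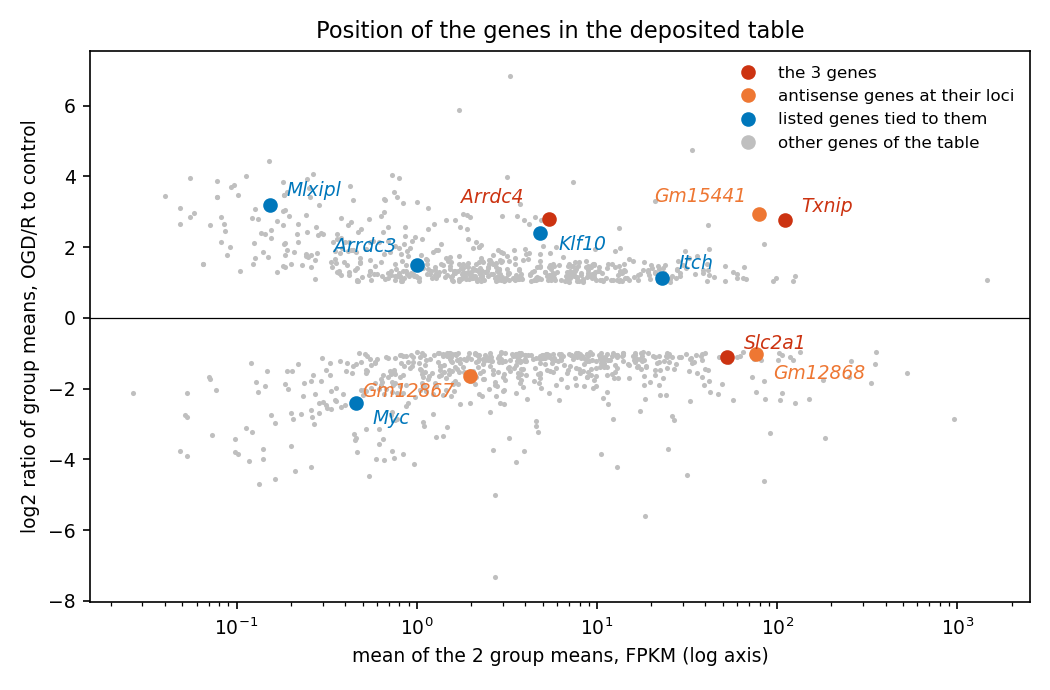
Log2 ratio of group means, OGD/R to control (y axis), against the mean of the group means in FPKM (x axis, log), for genes of the table with both means above 0. Txnip and its antisense gene Gm15441 lie at the upper right at log2 ratios of 2.76 and 2.93, Arrdc4 at 2.79 with a lower level, and Slc2a1 at -1.11 near the inner edge of the table, where no gene lies closer to 0 than 1.03 and -0.97.

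Antisense genes at 2 of the 3 loci were also in the table and went the same way as their sense partner. Gm15441 overlaps the whole of Txnip on the opposite strand (chromosome 3, 96555765 to 96566801) and is an antisense RNA studied in mouse liver as a regulator of Txnip. Its level was 14.94, 19.83 and 20.18 FPKM in control and 130.92, 127.61 and 160.03 in OGD/R, means of 18.3 ± 2.93 and 140 ± 17.8 (SD, n = 3; ratio 7.62; limma log2 fold change 2.87, adjusted p = 4.5e-05). The Txnip promoter stretch printed above lies inside an exon of Gm15441, which runs from position -671 to 440 relative to the start of Txnip. At Slc2a1, Gm12868 (chromosome 4, 119133749 to 119138801, minus strand) was at 142.34, 82.89 and 82.06 FPKM in control and 62.11, 49.56 and 39.02 in OGD/R, 2.04-fold lower on the means of 102 ± 34.6 and 50.2 ± 11.6 (limma log2 fold change -0.99, adjusted p = 0.01). The call of Gm12868 was lost when libraries were scaled to the same total FPKM (-0.56, limma adjusted p = 0.12, 0.0019 to 0.12 over all settings run). Gm12867, within an intron of Slc2a1 at 119130292 to 119131001 of chromosome 4, was at 3 ± 0.946 and 0.96 ± 0.161 FPKM from 8 to 14 and 3 to 4 units.

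**Figure D3:**
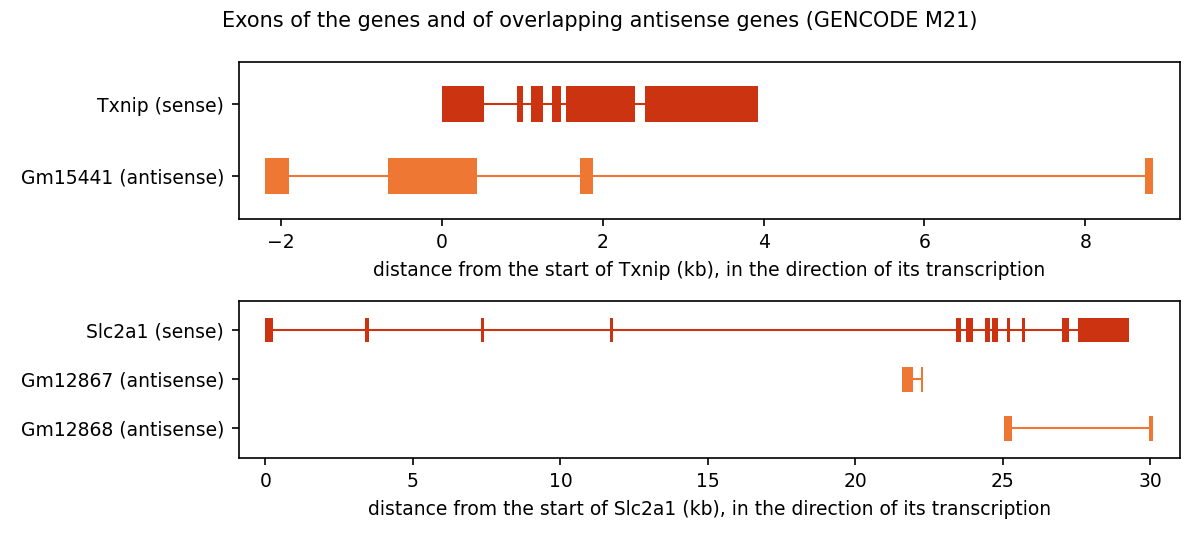
Exons (boxes) of Txnip and Slc2a1 and of the antisense genes in the table that overlap them, as distance in kb from the start of the sense gene (x axis), per GENCODE M21. Gm15441 covers the start of Txnip, from -671 to 440 bases. Gm12868 overlaps the end of Slc2a1 and shares exon bases with it only in the exon from 25144 to 25248 bases. Gm12867 shares no exon base with Slc2a1.

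The sources used here do not tell whether strand was used in counting, so reads of a sense gene and its antisense partner cannot be told apart and the antisense values are uncertain. Of the 1676 exon bases of Gm15441, 606 (36.2%) are also exon bases of Txnip, and of the 417 of Gm12868, 105 (25.2%) are exon bases of Slc2a1. Gm12867 shares 0 of its 457. The level of Gm15441 was 0.692, 0.59 and 0.675 of that of Txnip in the control libraries and 0.753, 0.711 and 0.716 in the OGD/R libraries, and it deviated to the same side as Txnip in 6 of 6 libraries. Of 831 other tested genes with no value at 0, 20.5% did so with Txnip and 8.06% with Slc2a1. Gm12868 was 1.24 to 1.57 times Slc2a1 in control and 1.29 to 1.76 times in OGD/R, again on the same side in 6 of 6. Gm12867 was on the side of Slc2a1 in 4 of 6, and its level was 0.0357 to 0.0441 of that of Slc2a1 in control and 0.0225 to 0.0334 in OGD/R, without overlap but from few units. Such joint movement was common in the table: 76 pairs of its genes overlap on opposite strands, and in 73 of them both means moved the same way. No gene of the table within 100000 bases of the 3 genes lay outside these overlaps, and Arrdc4 had none at all.

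**Figure D4:**
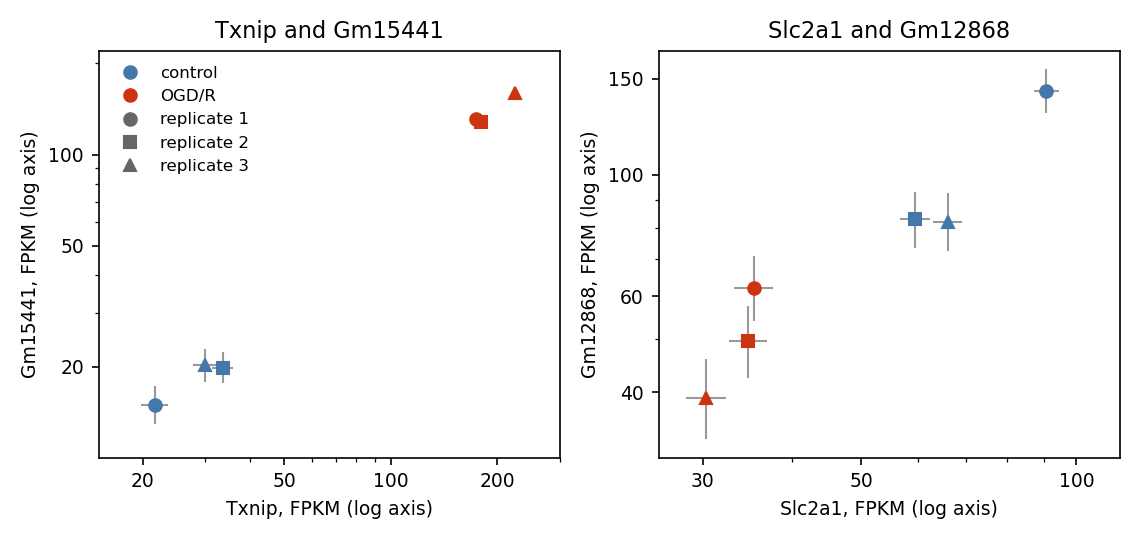
FPKM of Gm15441 against Txnip (left) and of Gm12868 against Slc2a1 (right), both axes log, with a point per library, colour for the group, symbols for the replicate and bars for the 95% counting interval. The control and OGD/R libraries form 2 groups near a common diagonal. Gm15441 was at 0.59 to 0.692 of Txnip in control and 0.711 to 0.753 in OGD/R, without overlap. Gm12868 was at 1.24 to 1.76 times Slc2a1, with overlap between the groups.

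Few other genes of the glucose-sensing pathway were in the table. Of 27025 genes with a promoter window, 387 were table genes with the higher mean in OGD/R and 387 with the lower. With so small a share of all genes in the table, low numbers of listed genes present are not read as a result. Genes with a mean of at least 1 FPKM were tested on log2(FPKM + 1) with limma, and 97.3% of them passed an adjusted p under 0.05 (46.6% higher and 50.7% lower in OGD/R), so each count below is read against these shares. Under total FPKM scaling 405 of 851 tested genes were called higher and 369 lower. The p-values come from a table selected for a difference on the same samples, and fold changes on this scale understate those of genes at low levels. Of 10 listed arrestin genes the table held Txnip, Arrdc4 and Arrdc3. Arrdc3, another alpha-arrestin, was at 0.62, 0.43 and 0.52 FPKM in control and 1.65, 1.19 and 1.6 in OGD/R. It reached the expression minimum only through its OGD/R level, so its difference is given without a test. Of 25 further genes listed as targets of MondoA or ChREBP, 3 were in the table, namely Arrdc3, Mlxipl and Klf10, and Klf10 was the one above the minimum in control and in OGD/R. Klf10, a zinc-finger repressor that is induced by glucose in hepatocytes, was at 1.03, 1.74 and 1.85 FPKM in control and 7.54, 7.57 and 9.31 in OGD/R (limma log2 fold change 1.86, adjusted p = 0.00014). Like Txnip it was lowest in control replicate 1 and highest in OGD/R replicate 3. It was on the same side of its group mean as Txnip in 6 of 6 libraries, as were 20.5% of 831 tested genes with no value at 0, Hilpda and Ddit3 among them.

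Of 13 listed genes of the Myc, Max and Mlx network the table held Mlxipl and Myc, both under the expression minimum and so not tested. Mlxipl, which encodes ChREBP, was listed at 0.0, 0.07 and 0.02 FPKM in control, that is 0 to 3 units, and at 0.29, 0.21 and 0.33 FPKM, or 10 to 16 units, in OGD/R. Myc, a growth-promoting factor that shares E-box sites and is known to compete with MondoA at the Txnip promoter, was at 0.67, 0.89 and 0.77 FPKM in control and 0.14, 0.22 and 0.08 in OGD/R, with 14 to 20 and 2 to 5 units. Mlxip and Mlx are not analysed here.

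Of 19 listed partners and regulators of the Txnip protein the table held 2, and both rose. Itch, the ubiquitin ligase that marks Txnip for degradation, was at 16.51, 13.55 and 13.04 FPKM in control and 34.94, 29.96 and 29.81 in OGD/R (limma log2 fold change 1.09, adjusted p = 0.00031). Nlrp3 was at 7.21 to 8.73 FPKM in control and 16.36 to 17.04 in OGD/R, 2.11-fold higher on the means. None of 18 listed genes of the thioredoxin and peroxiredoxin system, which Txnip inhibits through thioredoxin, was in the table.

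Around glucose uptake and use, the table held little beside Slc2a1, and given the small share of all genes in it nothing is read from that. It was 1 of 18 listed hexose carriers. Of 34 genes of glycolysis and lactate transport the table held 1, an entry named Aldoa that fell (limma log2 fold change -1.43, adjusted p = 0.00023), with means of 4.88 ± 0.543 and 1.19 ± 0.38 FPKM and with 26 to 35 and 6 to 11 units. That entry has a near-identical main locus, so its value is uncertain. Of 32 genes of pyruvate oxidation, the pentose phosphate path and glycogen, and of 32 genes of insulin, PI3K and AMPK signalling, 0 were in the table. Among 37 genes of the hypoxia response 3 were present. Beside Slc2a1, Ndrg1, a stress-responsive gene, fell from 65.1 ± 1.82 to 19 ± 0.454 FPKM (limma log2 fold change -1.72, adjusted p = 4.4e-05), and Hilpda, which encodes an inhibitor of fat breakdown in lipid droplets, rose from 15.4 ± 4.52 to 49.4 ± 16 (1.62, adjusted p = 0.0018).

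Most tested genes of the lists for glucose or amino acid shortage fell. Glucose-regulated proteins take their name from induction by glucose starvation. They were listed with other genes of the endoplasmic reticulum, chiefly chaperones, and this list gave 13 falls among 13 tested of 15 listed. Its median log2 fold change was -2.14, against -0.68 over the 852 genes tested. The latter is the median of genes that differ in opposite directions with few near 0, and it was -0.12 with no filter, -0.37 under total FPKM scaling and -0.98 with a pseudocount of 0.1. Hspa5 (GRP78) was at 1602.47 to 1788.3 FPKM in control and 215.51 to 246.98 in OGD/R. Hsp90b1 (GRP94) fell by 1.28 on the log2 scale (limma adjusted p = 0.00028), with means of 494 ± 75 and 201 ± 15.6 FPKM, and Pdia4 from 250 ± 15.7 to 51.2 ± 8.64. The remaining members with the largest falls were Herpud1, Creld2, Sdf2l1 and Manf, at -3.35, -3.12, -2.38 and -2.23. Of 22 listed targets of ATF4, the transcription factor of nutrient shortage, 7 were tested, 6 fell and 1 rose. Trib3, a pseudokinase that is induced by glucose withdrawal, fell from 124 ± 14.1 to 29.2 ± 2.96 FPKM (log2 fold change -2.05). Ddit3, Atf3, Gdf15 and Atf5 fell with -4.46, -1.82, -1.8 and -1.21. Nupr1 had -1.57 ± 0.58 (SE) and overlapping groups, and it lost its call without any 1 of control replicates 2 and 3 and OGD/R replicates 1 and 2 (-1.24 to -1.41, limma adjusted p = 0.096 to 0.11). Slc7a11, a cystine transporter named here because it was the exception, was at 15.3 ± 1.44 and 31.7 ± 3.06 FPKM.

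**Figure D5:**
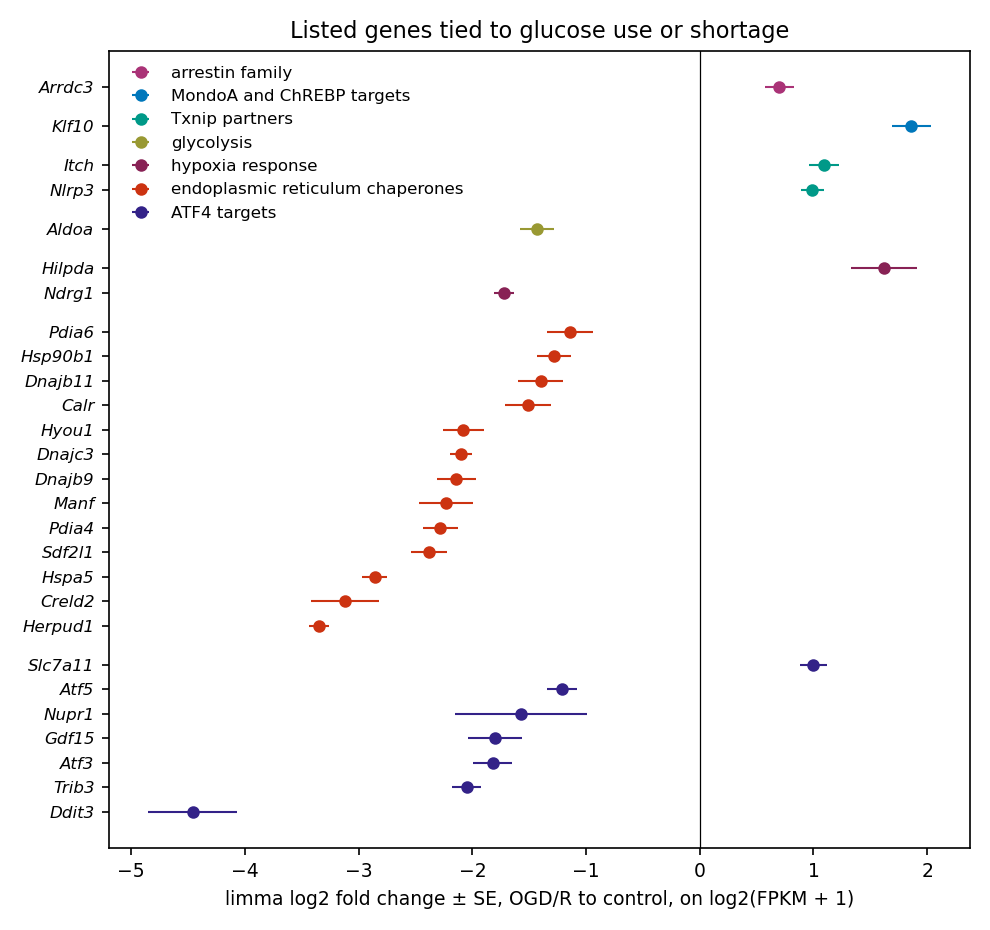
Limma log2 fold change ± SE, OGD/R to control, on log2(FPKM + 1) (x axis), for tested genes of the lists around glucose use or shortage, coloured by list, without Txnip, Arrdc4 and Slc2a1. Klf10, Itch and Nlrp3 lie between 0.99 and 1.86, and Arrdc3, which reached the minimum only through OGD/R, at 0.7. The genes listed under endoplasmic reticulum chaperones, not all of which encode chaperones, lie between -3.35 and -1.14.

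The genes most like each of the 3 were found by the distance between log2(FPKM + 1) values over the 6 libraries, each gene centred on its own mean. A distance of 0 would be the same pattern, and since the groups differ in nearly every gene of the table, the measure mostly ranks the size and direction of that difference. For Txnip the nearest of 851 tested genes was its antisense gene Gm15441, at 0.25. Next came Cd83, a glycoprotein of activated dendritic cells, at 0.58, then Thbs1 at 0.67, the nuclear receptor gene Nr4a1 at 0.88, Arrdc4 itself at 0.96 and Thbd at 1.01. Cd83 was at 3.86 ± 0.841 and 22.5 ± 3.93 FPKM (SD, n = 3). Thbs1 was at 0.0567 ± 0.0351 and 6.52 ± 0.761 FPKM, a log2 ratio of 6.85. The pseudocount of 1 lowers this to 2.83, against 5.42 with a pseudocount of 0.1, so its place near Txnip rests on the pseudocount. Thbs1, Nr4a1 and Thbd, with control means of 0.0567, 0.713 and 0.86 FPKM, reached the expression minimum only through their OGD/R level. Klf10 stood 7th, at 1.09.

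Seen from Arrdc4, the order was different. Pde7b, a cyclic AMP phosphodiesterase, was nearest at 0.31, at 1.01 ± 0.244 and 6.85 ± 0.69 FPKM (SD, n = 3). It was followed by Cytip, the gene of the study's title, at 0.38, Nr4a1 at 0.44, Chst10 at 0.45 and Thbd at 0.46. Of these, Nr4a1 and Thbd were compared only because their OGD/R level took them past the expression minimum. Txnip was 29th, at 0.96. The pseudocount of 1 in this measure lowers the log2 ratio of Arrdc4 from 2.79 to 2.14 and that of Txnip from 2.76 to 2.72. For Slc2a1 the nearest were Extl1 at 0.2, Npc1, a cholesterol exporter of lysosomes, at 0.21, Rapgef2 at 0.21, Agap1 at 0.24 and Dusp4, a phosphatase of MAP kinases, at 0.25. Dusp4 was the one of these at a level like that of Slc2a1, 102 ± 13 FPKM in control and 51.7 ± 3.85 in OGD/R. Gm12867 was 9th from Slc2a1 and Gm12868 26th.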

How the data were processed

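Per the labels, RNA from 3 control and 3 OGD/R samples of Bv2 cells was sequenced from 1 ug of RNA per sample with paired reads of 150 nt. The deposited values are FPKM, made by the authors and printed to 2 decimals, in 1 table of 1228 genes. The submitters' processing notes name the build GRCm38. Aligner, counter, annotation, strand setting and the rule for picking rows were not given in the sources used here. FPKM divides by gene length and library total, so a few very abundant genes can shift all others.

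Genes were placed with GENCODE M21 (1227 of 1228). The library size that made low FPKM values (under 15 units) whole multiples of 1 unit, within rounding plus 0.03 units, was found for each library; 97.2% to 100% of values came out whole, against 29.7% to 50.8% at the best size more than 3% away. It was recovered within 0.0099% on simulated tables of 1227 genes. Genes with a mean of at least 1 FPKM (852) were log2-transformed after adding 1 and fitted by limma 3.58.1, run in R 4.3.3 (group as factor, eBayes with a trend, two-sided, Benjamini-Hochberg over 852 genes, threshold 0.05). In a simulated table of 852 genes, 652 of them unchanged, this fit called 85% of genes changed by 1 log2 unit. It called 97% of those changed by 2 and 0.6% of unchanged ones. In the deposited table nearly all tested genes were called, so these rates may not hold there. Other steps used Python 3.11.15, pandas 2.3.3, numpy 2.4.6, scipy 1.17.1 and matplotlib 3.10.9.

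The 3 genes, 12 pathway lists and all settings were chosen with earlier results of these data known. Named genes are the 3 genes, up to 6 called genes per list by size of change, the 5 nearest profiles to each of the 3 among genes with a symbol that is no Gm, Rik or -ps name, and table genes that overlap the 3; Mlxipl, Myc, Slc7a11, Hsp90b1, the markers and the genes that led a ranking were named after their values were seen. Alternatives covered pseudocounts, filters, 2 scalings, eBayes without a trend, a replicate block, voom on recovered units and each library left out. Promoter sequences come from RefSeq; protein sequences were not used here.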

Additional observations from a re-analysis of the deposited data

How the results depend on the processing

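Directions of Txnip, Arrdc4 and Slc2a1 were the same in all 11 alternatives run on their log2 ratios of group means (main values 2.76, 2.79 and -1.11). Without any 1 replicate the ranges were 2.6 to 2.9, 2.73 to 2.83 and -1.23 to -0.91. Scaling libraries to the same total FPKM gave 3.21, 3.21 and -0.7; the mean log2 scaling factor differed by 0.434 between the groups, with table totals of 15937.6 to 18616.7 FPKM in control and 12971.9 to 13225.6 in OGD/R. For scaling by median ratios, which gave 2.8, 2.8 and -1.11, it differed by 0.025. A pseudocount of 1 gave 2.14 for Arrdc4. Of 852 genes tested 829 were called in limma (397 higher and 432 lower; 405 and 369 of 851 under total FPKM scaling), 786 to 831 without any 1 replicate, 409 with a minimum of 5 FPKM, where 423 were tested, and 835 with the replicate block. All 27 listed genes tested were called (25 to 27 without any 1 replicate, 27 with the block). The count includes Arrdc3, whose call is not used because it reached the minimum only through OGD/R. Of 36 named genes tested, 34 had an unchanged direction and call in each of the 15 settings, as far as these tested them; the exceptions were Gm12868 and Nupr1, the latter also with -1.2 under total FPKM scaling (limma adjusted p = 0.069). The replicate block gave 2.78, 2.79 and -1.09 for the 3 genes. The deviations of same-numbered libraries had correlations of 0.428, -0.349 and 0.375 over genes, so the numbers were not taken as pairs. Depth limits Gm12867, Mlxipl and Myc, with at most 20 units per library.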

Other observations

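Promoter windows were on hand for 387 genes of the table with the higher mean in OGD/R and 387 with the lower. The E-box CACGTG, found in the Arrdc4 window, occurred in those of 30 higher genes (7.75%) and 49 lower genes (12.7%), against 8.09% of 27025 genes with a window. ACGTG, found in the Slc2a1 and Arrdc4 windows, occurred in 25.3% of the higher genes, 28.2% of the lower and 21.8% of all. CCAAT occurred in 52.7%, 47.5% and 41.1%. The carbohydrate response element consensus occurred in 1 higher gene, Pde4b, a cyclic AMP phosphodiesterase, and 1 lower gene, Gm16907, both named after this search, and in 0.137% of all genes. These shares are descriptions and were not tested.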
